A study of Mus musculus with 5 samples.

Results

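Isolated CpGs with a C or a G on both sides were examined in *Cebpa*-mutant leukemic blasts with and without TET2. A CpG dyad is a CpG taken with its cytosines on both strands, whether or not reads covered it. A dyad was taken when no other CpG lay within 35 bp on either side and when the base before its C and the base after its G were each C or G, as read from the trinucleotide listed on each strand. Of 20383623 autosomal dyads, 1587311 (7.79%) met this rule, and they made up 17.9% of the 8874378 isolated dyads. The 4 flank combinations are written here on the plus strand. CCGG held 573669 dyads (36.1%), GCGC 265025 (16.7%), CCGC 374199 (23.6%) and GCGG 374418 (23.6%), the last pair being reverse complements of one another. The dyads were spread over 24029 windows of 100 kb, with a median of 63 and at most 159 in a window.

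The blasts came from bone marrow of mice of the C57BL/6 strain, sorted as live donor-derived (CD45.2+) cells without CD3, B220 and Ter119, and their DNA was read by whole-genome bisulfite sequencing (WGBS). All 5 libraries carried *Cebpa*-/p30, a deleted allele beside one whose sole product is p30, a truncated form of the myeloid transcription factor CEBPA. *Tet2* was intact in 2 libraries (*Tet2*+/+, numbers 23 and 24) and deleted in 3 (*Tet2*-/-, numbers 5, 7 and 8). According to the methods of the study, floxed alleles were deleted by interferon-inducible Mx1-Cre in irradiated recipients of donor bone marrow, and blasts were taken when mice were moribund. Such recipients can keep host cells, against which the CD45.2+ sort selects, and cells that escape deletion. The design text calls the libraries biological replicates. Age was not taken from the labels. The cell type was not checked by expression markers, since these 5 libraries measure methylation alone.

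DNA methyltransferases place a methyl group on the cytosine of a CpG, and DNMT1 copies the mark onto the new strand after replication. TET2 oxidises 5-methylcytosine to 5-hydroxymethylcytosine and further, which opens a route to removal of the mark. Bisulfite sequencing reads both forms as methylated. Isolated CpGs with A or T on both sides are known as the sites that lose methylation most readily in late-replicating domains of dividing cells, whereas those with C or G on both sides are known to keep it better. CCGG is the recognition site of the restriction enzymes HpaII and MspI, and GCGC that of HhaI.

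To show what such a dyad looks like, the most deeply read intronic or intergenic one of each combination is given from the single window that passed the test of the genotypes described further on, all from introns of *Col4a1*, the gene of a collagen chain of basement membranes. Each sequence is 72 bases of the plus strand of GRCm38 with the CpG and its flanks in capitals. They lie at chr8:11298511-11298582, chr8:11265437-11265508, chr8:11274599-11274670 and chr8:11261998-11262069.
CCGG in Col4a1: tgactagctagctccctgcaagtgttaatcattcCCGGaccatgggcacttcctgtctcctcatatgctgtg
GCGC in Col4a1: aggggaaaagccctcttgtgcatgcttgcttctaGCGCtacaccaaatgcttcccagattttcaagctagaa
CCGC in Col4a1: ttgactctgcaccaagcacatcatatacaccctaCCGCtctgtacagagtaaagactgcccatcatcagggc
GCGG in Col4a1: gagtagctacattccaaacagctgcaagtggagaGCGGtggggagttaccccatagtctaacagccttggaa

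The nearest other CpG was 135, 38, 44 and 70 bp away. The CCGG dyad was methylated in 7 of 9 and 0 of 11 calls in *Tet2*+/+ libraries 23 and 24 and in 8 of 11, 14 of 15 and 5 of 5 calls in *Tet2*-/- libraries 5, 7 and 8. The GCGC dyad was methylated in every call of every library, with 6 to 15 calls. The CCGC dyad had 5 of 7 methylated calls in both *Tet2*+/+ libraries and 13 of 15, 9 of 9 and 7 of 7 in the *Tet2*-/- libraries. For the GCGG dyad these were 9 of 9 and 6 of 6 in *Tet2*+/+ and 14 of 14, 14 of 15 and 6 of 6 in *Tet2*-/-. None of these 4 reached 10 calls in every library, so single dyads were too shallow to compare and calls were summed.

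With a minimum of 10 calls in every library, the most deeply read dyad outside exons on the autosomes other than chromosomes 3 and 18 shows how far single members can differ. Those of CCGG and CCGC lie in masked repeats outside protein-coding genes at chr1:65507516-65507587 and chr1:76814428-76814499, that of GCGC in an intron of *Atp8b5*, the gene of a phospholipid transporter, at chr4:43297040-43297111, and that of GCGG outside protein-coding genes at chr7:3461561-3461632.
CCGG, chromosome 1: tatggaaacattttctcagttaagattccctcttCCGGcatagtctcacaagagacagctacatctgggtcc
GCGC, chromosome 4: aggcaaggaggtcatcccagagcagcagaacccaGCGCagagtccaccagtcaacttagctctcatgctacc
CCGC, chromosome 1: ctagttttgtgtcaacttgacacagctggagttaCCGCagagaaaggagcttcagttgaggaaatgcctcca
GCGG, chromosome 7: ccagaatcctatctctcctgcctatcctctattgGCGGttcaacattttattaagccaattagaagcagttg

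The CCGC dyad of chromosome 1 was nearly free of methylation, with 1 of 13 and 0 of 16 methylated calls in *Tet2*+/+ and 3 of 16, 0 of 13 and 1 of 10 in *Tet2*-/-. The CCGG dyad of chromosome 1 was methylated in 8 of 11 and 10 of 12 calls in *Tet2*+/+ and in 17 of 19, 12 of 15 and 8 of 11 in *Tet2*-/-. The GCGC dyad in *Atp8b5* was methylated in 10 of 10 calls in each *Tet2*+/+ library and in 13 of 13, 23 of 23 and 11 of 12 calls in *Tet2*-/-. For the GCGG dyad of chromosome 7 these were 11 of 12 and 14 of 14 in *Tet2*+/+ and 11 of 15, 17 of 17 and 10 of 10 in *Tet2*-/-.

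Depth per C/G-flanked isolated dyad was 3.90 and 3.72 calls in *Tet2*+/+ libraries 23 and 24 and 5.45, 5.68 and 3.23 calls in *Tet2*-/- libraries 5, 7 and 8, or 5133144 to 9017097 calls per library. Of these dyads, 76.4% had a call in all 5 libraries and 92763 had none in any library. The 95% Wilson interval of a library's level was at most 0.0357 points to either side, so that differences between libraries were far larger than counting error. Mitochondrial CpGs, which serve as a control for unconverted cytosine, were 0.807% to 0.989% methylated. As a check of the labels, the longest run of *Tet2* dyads without a call in any *Tet2*-/- library was sought. It held 36 consecutive dyads across the intron boundary of the 3′ terminal *Tet2* exon (chromosome 3, 133466411 to 133468352). The run had 128 and 151 calls in *Tet2*+/+ libraries 23 and 24. The same search for *Tet2*+/+ found 6 dyads, which had no call in any library. Since the run was chosen for its lack of calls, it cannot show whether undeleted alleles were present.

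To ask how methylated these dyads were and whether loss of TET2 changed that, calls were pooled per library into a weighted methylation level, the share of calls that are methylated. *Tet2*+/+ libraries 23 and 24 stood at 77.2% and 73.2%, and *Tet2*-/- libraries 5, 7 and 8 at 80.0%, 84.8% and 78.3%. All 3 *Tet2*-/- libraries lay above both *Tet2*+/+ libraries, although library 8 was only slightly above library 23. *Tet2*+/+ averaged 75.2% ± 2.80 (SD, n = 2) and *Tet2*-/- 81.0% ± 3.35 (SD, n = 3), 5.82 points higher (two-sided exact permutation test, p = 0.2, adjusted to 0.233 over 7 classes of dyads). Without library 24 the difference was 3.84 points. With 2 libraries against 3, such a test has 10 arrangements and cannot give a p below 0.1, so no single level could pass 0.05. In bulk DNA, a change in every cell and a change in the share of cells with a methylated copy cannot be told apart.

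**Figure D1:**
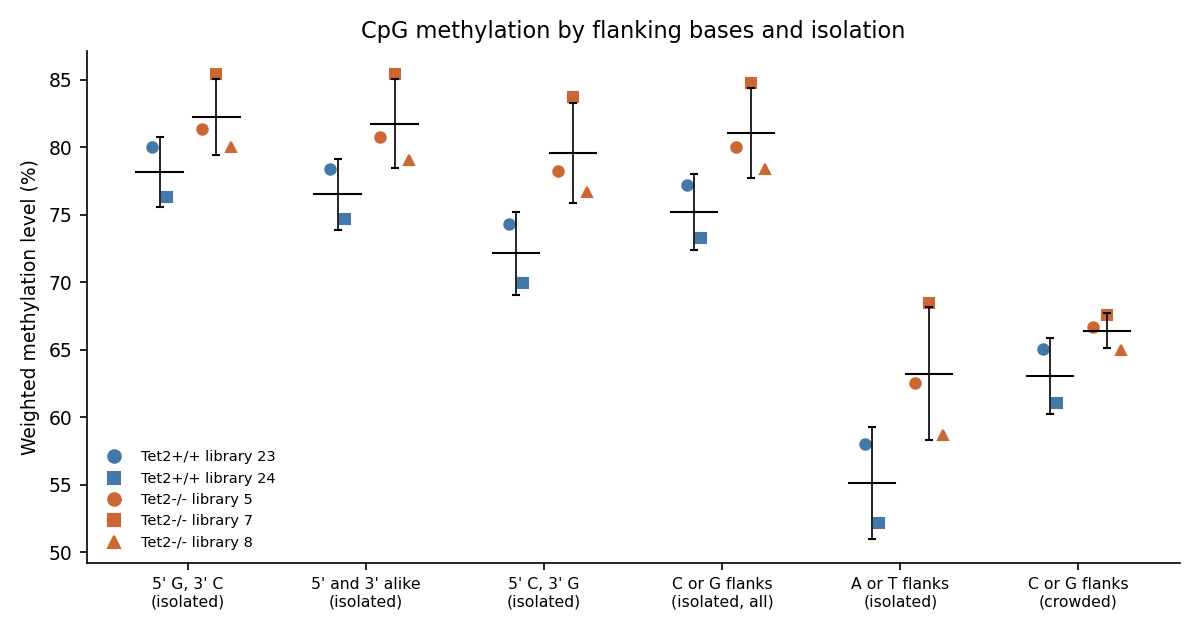
Weighted methylation level (%, vertical axis, not starting at 0) of CpG dyads by their flanking bases and isolation, 1 point per library, with the group mean (line) and SD (bar). Isolated dyads with C or G flanks lie between 73.2% and 84.8%, above the isolated dyads with A or T flanks in every library, and the combination with C before and G after the CpG is lowest among them.

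Isolated dyads with A or T on both sides were lower, at 58.0% and 52.2% in *Tet2*+/+ and 62.5%, 68.4% and 58.7% in *Tet2*-/-. Within each library, the C/G-flanked level exceeded the A/T-flanked level by 16.3 to 21.1 points (mean 18.7 ± 1.86, SD, n = 5). The exact sign-flip permutation test over the 5 libraries gave p = 0.062, the smallest it can give. In points, the *Tet2*+/+ gap averaged 20.1 ± 1.36 (SD, n = 2), that of *Tet2*-/- averaged 17.8 ± 1.68 (SD, n = 3), and the groups overlapped (difference −2.30, exact permutation p = 0.3, and −1.34 without library 24). As log2 odds of methylated against unmethylated calls, the gap was 1.31 in *Tet2*+/+ and 1.32 in *Tet2*-/-, a difference of 0.01 in the other direction (exact permutation p = 0.8). Without library 23 or without library 7 this difference was −0.005, so its sign was not stable. The smaller genotype difference of the C/G-flanked dyads in points thus rested on the scale, since in log2 odds the differences were 0.50 for C/G and 0.49 for A/T flanks (0.35 and 0.32 without library 24, 0.32 and 0.33 without library 7).

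Dyads with the same flanks but another CpG within 35 bp (crowded, 3396287 dyads) were lower than the isolated ones in every library, at 65.0% and 61.0% in *Tet2*+/+ and 66.7%, 67.6% and 65.0% in *Tet2*-/-. Of the crowded dyads, 17.2% lay in promoters, against 1.80% of the isolated ones. The isolated level exceeded the crowded level by 12.2 points in both *Tet2*+/+ libraries and by 13.3, 17.2 and 13.4 points in *Tet2*-/- (difference 2.44, exact permutation p = 0.3, and 1.14 without library 7). Outside promoters and exons this excess was much smaller, with means of 1.66 points in *Tet2*+/+ and 2.11 points in *Tet2*-/- (difference 0.45, exact permutation p = 0.7), and with windows of 100 kb of equal weight it was 3.32 points in *Tet2*+/+ and 1.68 points more in *Tet2*-/-. Just inside the limit, C/G-flanked dyads whose nearest CpG lay 36 to 41 bp away were at 76.3%, 72.4%, 79.3%, 83.9% and 77.8% in libraries 23, 24, 5, 7 and 8. Just outside it, at 30 to 35 bp, they were at 75.8%, 72.1%, 78.9%, 83.4% and 77.5%.

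The level depended on the order of the flanking bases. CCGG was the lowest combination in every library, at 74.3% and 70.0% in *Tet2*+/+ and 78.3%, 83.7% and 76.7% in *Tet2*-/-. GCGC, the same bases in the opposite order, was the highest in 4 libraries, at 80.0% and 76.3% in *Tet2*+/+ and 81.3%, 85.4% and 80.0% in *Tet2*-/-, and in library 7 it did not stand apart from GCGG at 85.4%. CCGC and GCGG lay close to one another in each library and together were at 78.4%, 74.7%, 80.8%, 85.4% and 79.0%.

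The difference between the genotypes followed the reverse order. *Tet2*-/- was higher by 7.43 points for CCGG (exact permutation p = 0.1), 5.22 points for CCGC and GCGG together (p = 0.2 by the same exact test) and 4.10 points for GCGC (p = 0.2 by the same exact test), each with a p of 0.2 after adjustment over the 5 combinations tested. Leaving out *Tet2*+/+ library 24 gave 2.26 points for GCGC, leaving out *Tet2*-/- library 7 gave 2.52 points, and CCGC and GCGG differed by 3.36 and 3.37 points without library 24 and 3.41 and 3.38 points without library 7. The lowest and the highest combination were then compared within each library, a pair chosen after the levels were seen. CCGG minus GCGC was −5.71 and −6.34 points in *Tet2*+/+ and −3.07, −1.71 and −3.32 points in *Tet2*-/-, so that all 3 *Tet2*-/- libraries had a smaller gap than both *Tet2*+/+ libraries. The mean gap was −6.02 ± 0.450 (SD, n = 2) without and −2.70 ± 0.866 (SD, n = 3) with the deletion. These differ by 3.33 points, with the smallest p the exact permutation test can give, 0.1 (0.3 adjusted over 3 gaps). On the log2 odds scale the gap was −0.47 in both *Tet2*+/+ libraries and −0.27, −0.19 and −0.28 in *Tet2*-/- (difference 0.22, exact permutation p = 0.1).

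**Figure D2:**
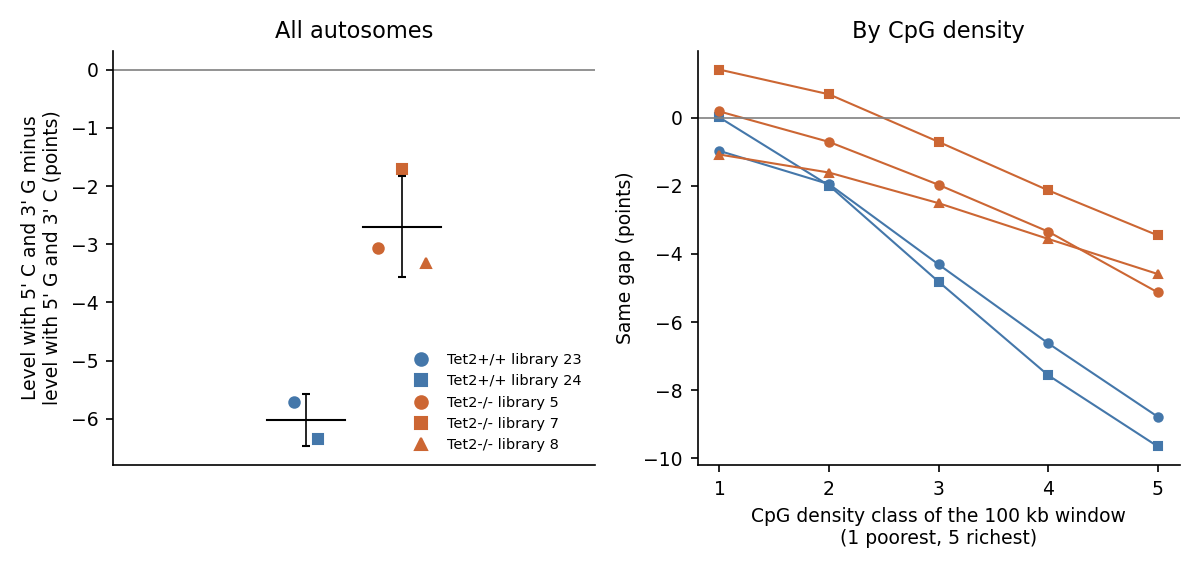
Level of dyads with C before and G after the CpG minus level of dyads with G before and C after it (percentage points, vertical axis), for all autosomes (left, with group mean and SD) and by CpG density class of the 100 kb window (right, 1 line per library). The *Tet2*-/- libraries sit nearer to 0 than the *Tet2*+/+ libraries on the left, and on the right the lines spread from the CpG-poorest to the CpG-richest class.

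CCGG had the larger genotype difference within and outside repeats and at each kind of position in or outside genes. Outside masked repeats, CCGG differed by 7.71 points and GCGC by 4.15 points, and within repeats, which held 31.4% of CCGG and 23.2% of GCGC dyads, 6.33 and 3.87 points. In promoters the differences were 8.74 and 5.12 points, in exons 7.95 and 3.74, in introns 7.36 and 3.61, and outside protein-coding genes 7.39 and 4.52. The groups overlapped for GCGC in repeats and outside protein-coding genes (exact permutation p = 0.3 for both). Without library 24 the GCGC differences other than that of promoters were 2.03 to 2.41 points, and without library 7 CCGG in repeats differed by 3.88 points. Both DNA strands of the palindromic CCGG gave alike values, with differences of 7.40 points on the plus and 7.45 points on the minus strand.

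CCGG minus GCGC was lower in each denser class of surroundings than in the class before it, in every library. Windows of 100 kb were put into 5 classes of nearly equal number by their count of listed dyads, from at most 531 in class 1 to at least 1149 in class 5. In the CpG-poorest class, CCGG and GCGC were close, with a gap of −0.97 and 0.01 points in *Tet2*+/+ and 0.18, 1.41 and −1.08 points in *Tet2*-/-, and the groups overlapped. In the CpG-richest class, the gap was −8.78 and −9.65 points in *Tet2*+/+ and −5.13, −3.46 and −4.59 points in *Tet2*-/-. The *Tet2*-/- gap was smaller by 4.83 points there and the groups did not overlap (exact permutation p = 0.1), as in classes 3 and 4 with 2.83 and 4.08 points. In class 2 the groups did not overlap either, with 1.43 points (exact permutation p = 0.2). Adjusted over the 5 classes, the exact permutation p was 0.167 in classes 3, 4 and 5 and 0.25 in class 2.

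The bases one step further out also graded the level. The isolation rule leaves 28 six-base contexts once reverse complements are joined, since a C before a G flank or a G after a C flank would form another CpG. By the mean of the 5 libraries, the highest were TGCGCA, where *Tet2*+/+ had 84.9% ± 1.82 (SD, n = 2) and *Tet2*-/- had 87.8% ± 2.45 (SD, n = 3), TCCGCA with 81.7% and 85.5%, and AGCGCA with 81.8% and 85.4%. The lowest were CCCGGG with 62.6% ± 4.08 (SD, n = 2) and 72.3% ± 4.72 (SD, n = 3), and GGCGCC with 67.4% and 73.5%. CCCGGG, the recognition site of SmaI and XmaI, had 54473 dyads and the difference was 9.69 points, against 2.88 points in TGCGCA with 36404 dyads, where the groups overlapped (exact permutation p = 0.3) and the difference was 1.59 points without library 24 and 1.51 points without library 7. That of GGCGCC, 6.07 points, was 3.45 points without library 24. With A or T at both outer positions, the difference of the gap between CCGG and GCGC was 2.71 points (exact permutation p = 0.1).

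In CCGC and GCGG dyads, the strands can be compared within the same dyads, because one strand reads CGC and the other CGG. The CGG strand was higher in all 5 libraries, by 2.73 and 2.75 points in *Tet2*+/+ and 2.57, 2.87 and 2.09 points in *Tet2*-/- (mean 2.60 ± 0.304, SD, n = 5, exact sign-flip permutation p = 0.062, the smallest possible). The plus strand of CCGC, which reads CGC, was at 76.7% in library 23 and its minus strand at 79.6%. In GCGG, where the roles are exchanged, the plus strand was at 79.6% and the minus strand at 77.1%. The strand difference did not separate the genotypes (−0.23 points, exact permutation p = 0.6).

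To compare whole dyads at one depth, dyads with at least 5 calls in a library were thinned to 5 calls in that library. They numbered 610052 and 567054 in libraries 23 and 24 and 917700, 905435 and 446552 in libraries 5, 7 and 8. The libraries were thus not compared on the same dyads. Of these, 46.2% and 40.5% were methylated in all 5 calls in *Tet2*+/+, and 49.9%, 62.6% and 46.7% in *Tet2*-/-. The share with no methylated call was 6.11% and 7.63% in *Tet2*+/+ and 4.94%, 4.12% and 5.76% in *Tet2*-/-. The groups did not overlap in either share, and the differences were 9.74 and −1.92 points (exact permutation p = 0.2 for both). Library 8 exceeded library 23 by less than 1 point in fully methylated dyads, and without library 7 the difference was 4.97 points. For dyads with no methylated call it was −1.16 points without library 24.

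By position in genes, the isolated C/G-flanked dyads were least methylated in promoters (within 1000 bp of the start of a protein-coding gene, 1.80% of them), with 48.3% and 45.0% in *Tet2*+/+ and 52.2%, 56.8% and 52.5% in *Tet2*-/-. The difference was 7.21 points (exact permutation p = 0.1, 0.2 adjusted over 4 kinds of position). Exons (4.59%) were highest, with *Tet2*+/+ at 78.9% ± 2.31 (SD, n = 2) and *Tet2*-/- 5.68 points above it at 84.6% ± 2.81 (SD, n = 3), with no overlap (exact permutation p = 0.1). Introns (40.2%) differed by 5.50 points and dyads outside protein-coding genes (53.4%) by 6.05 points, with exact permutation p = 0.2 in both, the latter being 3.86 points without library 24. By distance to the nearest other CpG, the difference ran from 5.99 points at 36 to 50 bp to 5.31 points beyond 200 bp, where the groups overlapped and the difference was 2.95 points without library 24 and 3.32 points without library 7. On the 19 autosomes the difference at all distances together lay between 5.22 points (chromosome 3) and 6.39 points (chromosome 11), with no overlap of the groups on any of them. Without library 24 chromosome 3 differed by 3.08 points.

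The C/G-flanked dyads had a similar level in CpG-poor and CpG-rich surroundings, unlike the A/T-flanked ones. In *Tet2*+/+ library 23 they were at 76.3% in density class 1 and 75.3% in class 5, while A/T-flanked dyads were at 47.6% and 62.8%. In *Tet2*-/- library 8 the values were 75.2% and 78.3% for C/G flanks and 44.9% and 67.0% for A/T flanks. All 5 libraries showed this difference in shape. The genotype difference of the C/G-flanked dyads was 5.32 points in class 1, where the groups overlapped and the difference was 2.36 points without library 24 and 3.25 points without library 7, and 6.62 points in class 5, where they did not (exact permutation p = 0.1, 0.3 adjusted over 5 classes).

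**Figure D3:**
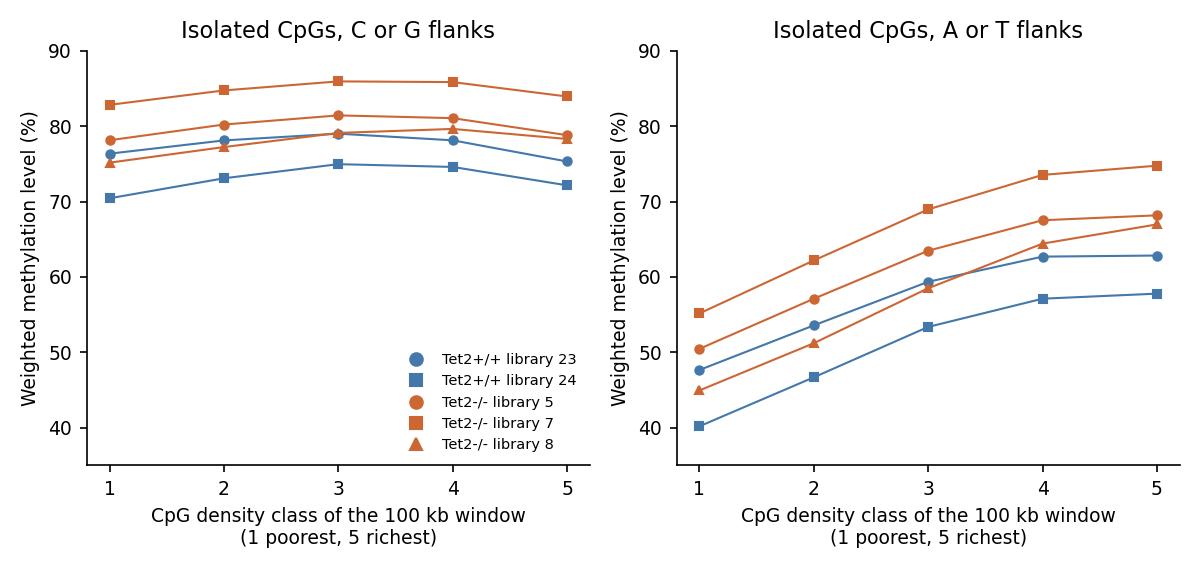
Weighted methylation level (%, vertical axis) of isolated dyads with C or G flanks (left) and A or T flanks (right) in 5 classes of 100 kb windows from the CpG-poorest (1) to the CpG-richest (5), 1 line per library. The left lines stay between 70.4% and 85.9%, and the right lines rise from class 1 to class 5 in every library.

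To look for places where the genotypes differ, calls were summed in 100 kb windows with at least 20 calls in every library and tested with edgeR's quasi-likelihood test across all 23841 windows. The median difference was 5.44 points and 93.1% of windows were higher in *Tet2*-/-, and the median was 3.40 points without library 24 and 3.57 points without library 7. In 42.8% of windows all *Tet2*-/- libraries lay above both *Tet2*+/+ libraries, and in 0.453% all lay below. Only 1 window (0.00419%) passed an adjusted p of 0.05, while 4211 (17.7%) had an unadjusted p under 0.05, 4189 of them higher in *Tet2*-/-. The count at an unadjusted p was 319 without library 24 and 2680 without library 5. The same test on all CpGs called 2111 of 23982 windows (8.8%) and on A/T-flanked isolated dyads 153 of 23904 (0.64%). Of the tested windows, 97.04% were higher in *Tet2*-/- for all CpGs and 94.98% for A/T flanks, so the 93.1% for C/G flanks was not above them. An unadjusted p under 0.05 was reached by 5891 windows for all CpGs and 4428 for A/T flanks (1223 and 357 without library 24). The share without overlap is given for C/G flanks alone, so the 42.8% cannot be compared with all CpGs. The A/T-flanked class held 2998463 dyads and the C/G-flanked class 1587311, so their counts did not rest on equal numbers of dyads. The counts of called windows turned on single libraries. Without library 24 they were 0 for C/G flanks, 1 for all CpGs and 0 for A/T flanks, without library 5 they were 1, 171 and 1, and without library 7 they were 470, 1360 and 192, so that C/G flanks then had more called windows than A/T flanks. With all CpGs thinned to the calls of the C/G-flanked dyads in each window and library, 1242 of 23841 windows (5.21%) were called.

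**Figure D4:**
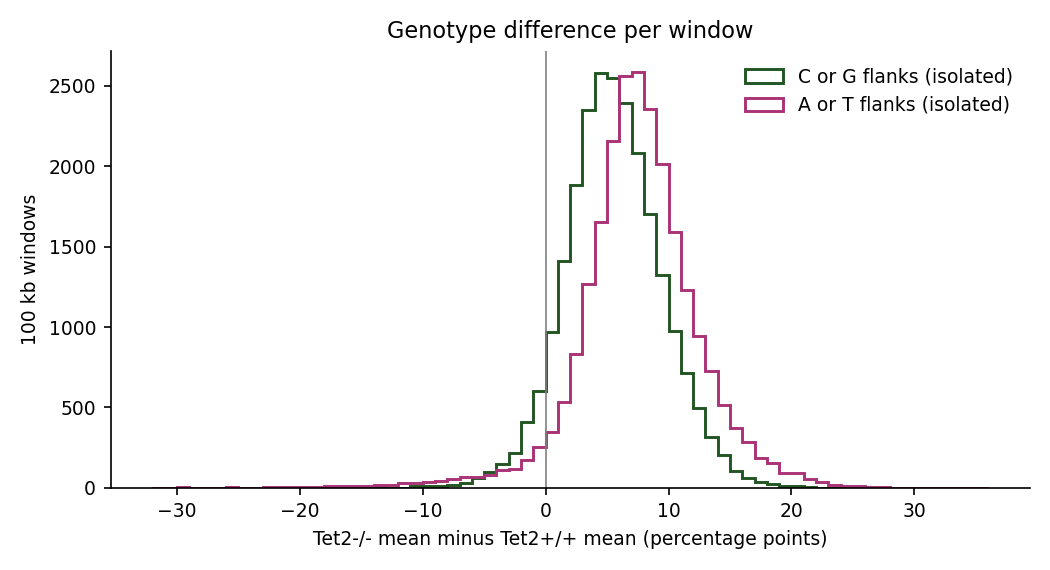
Number of 100 kb windows (vertical axis) by the difference of group means, *Tet2*-/- minus *Tet2*+/+ (percentage points, horizontal axis), for isolated dyads with C or G flanks and with A or T flanks. Both distributions lie mostly above 0, with medians of 5.44 and 7.53 points, or 3.40 and 4.50 points without *Tet2*+/+ library 24.

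The called window, chr8:11200001-11300000, lies within *Col4a1* and held 108 of the dyads with 408 to 789 calls per library. Its level was 74.0% and 60.9% in *Tet2*+/+ and 83.7%, 91.1% and 86.8% in *Tet2*-/-, so that the groups did not overlap. *Tet2*+/+ averaged 67.4% ± 9.28 (SD, n = 2) and *Tet2*-/- 87.2% ± 3.72 (SD, n = 3), 19.8 points higher (edgeR's quasi-likelihood test, adjusted p = 0.00445). The A/T-flanked dyads of the same window differed by 34.8 points, the widest positive difference of that class in any window. The call was lost without *Tet2*+/+ library 24 (13.2 points, edgeR adjusted p = 0.997), without library 23 (26.3 points, edgeR adjusted p = 0.172) and without *Tet2*-/- library 8 (19.99 points, edgeR adjusted p = 0.0751). It was also lost with limma on all 5 libraries (adjusted p = 0.164, and 0.153 after each library's median window was subtracted).

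By flank combination, the called windows were almost all of CCGG. Of 23207 windows with at least 20 CCGG calls in every library, 244 (1.05%) passed, all higher in *Tet2*-/-, against 0 of 16514 (0%) for GCGC, 6 of 19814 (0.0303%) for CCGC and 2 of 19788 (0.0101%) for GCGG. For GCGC, 1529 windows had an unadjusted p under 0.05 (572 without library 24), and no other tool was run on the combinations. With CCGG thinned to the calls of GCGC in the same 14427 windows, 135 were called for CCGG and 0 for GCGC. The count for CCGG fell to 0 without *Tet2*+/+ library 23 or library 24, to 81 without *Tet2*-/- library 5 and to 59 without library 8, and was 327 without library 7. The difference between the combinations itself was tested as an interaction, which called 1 of 16376 windows (0.00611%), while the CCGG difference was the larger in 68.0% of windows with a median difference of 3.57 points.

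In the 244 CCGG windows, the median CCGG difference was 19.6 points by selection. The other combinations, whose calls did not enter that choice, differed in the same windows by a median of 6.41 points for GCGC (233 windows), 7.55 for CCGC (239) and 8.34 for GCGG (239), against medians over all windows of 3.57, 4.84 and 4.73 points. Without library 24 the medians over all windows were 2.01, 2.98 and 2.97 points, and without library 7 they were 2.15, 3.08 and 3.04 points. A/T-flanked isolated dyads of the 244 windows, also outside that choice, differed by a median of 13.5 points, against 7.53 over all windows. The libraries were shared, so no test was made of these values. Among the 5 CCGG windows of the largest gain, named after their values were seen, chr6:80400001-80500000 lies in *Lrrtm4*, the gene of a synaptic adhesion protein. Its 14 CCGG dyads were at 48.5% and 55.9% in *Tet2*+/+ and 81.8%, 90.7% and 93.1% in *Tet2*-/- (difference 36.4 points, edgeR adjusted p = 0.0285). In chr17:31400001-31500000, which holds *Pde9a*, the gene of a cGMP phosphodiesterase, and *Wdr4*, the gene of a subunit of a tRNA methyltransferase, 35 CCGG dyads were at 57.2% and 46.7% in *Tet2*+/+ and 74.9%, 87.3% and 80.9% in *Tet2*-/- (difference 29.1 points, edgeR adjusted p = 0.00359). The window at chr16:25400001-25500000 in *Tprg* gained 31.2 points, and those at chr4:8300001-8400000 and chr11:56700001-56800000, with no protein-coding gene, 35.6 and 32.2 points.

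The windows that hold the genes of the study were read next. None of the 5 passed the edgeR test (0.00419% of all windows did), none had an unadjusted p under 0.05 (17.7% of all windows), and 2 were higher without overlap (42.8% of all windows). The window of *Tet2* was at 81.3% and 82.2% in *Tet2*+/+ and 83.9%, 91.9% and 82.9% in *Tet2*-/- (adjusted p = 0.383). The window of *Sirt5*, the gene of a mitochondrial deacylase, also holds *Gfod1* and *Nol7* and was at 69.4% and 69.6% in *Tet2*+/+ and 75.6%, 78.7% and 75.5% in *Tet2*-/-, without overlap (difference 7.08 points, adjusted p = 0.379). The window of *Fut8*, the gene of a fucosyltransferase, had 75.3% and 62.1% in *Tet2*+/+ and 72.9%, 84.3% and 76.0% in *Tet2*-/-, and the groups overlapped. *Cebpa*, whose product directs granulocyte differentiation, shares with *Slc7a10* a window at 67.2% and 67.8% in *Tet2*+/+ and 66.8%, 76.7% and 68.5% in *Tet2*-/-. *Gata2*, the gene of a stem and progenitor cell transcription factor, shares with *Rpn1* a window at 72.4% and 69.1% in *Tet2*+/+ and 70.2%, 72.5% and 67.8% in *Tet2*-/- (−0.62 points, adjusted p = 0.942).

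The 9 genes of the methylation machinery count the isocitrate dehydrogenase genes *Idh1* and *Idh2*, whose enzymes make a cosubstrate of TET enzymes. None of the 9 lay in a called window by the edgeR test, with 0 at an unadjusted p under 0.05, against 0.00419% and 17.7% of all windows. In 4 of the 9 windows the groups did not overlap, all higher in *Tet2*-/-, against 42.8% of all windows, and the median difference was 1.74 points against 5.44 over all windows (−0.18 against 3.57 points without library 7). Values ran from −0.73 points at *Idh2*, whose window also holds *Sema4b*, to 5.51 at *Tdg*, the gene of the glycosylase that excises oxidised methylcytosine, whose window also holds *1190007I07Rik*, *Glt8d2* and *Hcfc2* and differed by 2.90 points without library 7. Of 11 autosomal myeloid and stem cell transcription factor genes, none was called by the edgeR test (0.00419% of all windows were), 1 had an unadjusted p under 0.05 and 5 windows were higher without overlap, with a median of 3.08 points against 5.44 over all windows. These counts stand beside 17.7% and 42.8% of all windows. Without library 24 the median of the 11 windows was 3.90 points and lay above that of all windows. The window of *Hoxa9*, a homeobox gene of immature hematopoietic cells, had the widest difference of the 11, at 54.4% and 46.8% in *Tet2*+/+ and 58.6%, 63.5% and 73.1% in *Tet2*-/- (14.5 points, edgeR adjusted p = 0.223). That window also holds *Gm28308*, *Hoxa3*, *Hoxa5*, *Hoxa6*, *Hoxa7*, *Hoxa10*, *Hoxa11* and *Hoxa13*, so the value is not one of *Hoxa9* alone. Without *Tet2*-/- library 7 the difference was 15.3 points with an edgeR adjusted p of 0.031. Without library 5 or library 8 the adjusted p of the same test was 0.412 or 0.296. The difference was 18.3 points without library 23 and 10.7 points without library 24. All CpGs of the window differed by 10.2 points (edgeR adjusted p = 0.0117), in a test that 8.8% of all windows passed. The window of *Cebpe*, which also holds *Slc7a8*, had the smallest difference with 0.93 points. *Gata1* lies on the X chromosome and was not tested.

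Of 10 surface and granule protein genes, which lie in 9 distinct windows, none was called by the edgeR test (0.00419% of all windows were), and the median difference was 4.71 points against 5.44 over all windows (2.17 against 3.57 without library 7). Without library 24 the median of the 9 windows was 6.08 points and lay above that of all windows. Of the 9 windows, 2 (*Kit* and *Flt3*) had an unadjusted p under 0.05 and 4 were higher without overlap, against 17.7% and 42.8% of all windows. *Flt3*, the gene of a receptor tyrosine kinase of progenitors, shares with *Pan3* a window at 71.6% and 63.5% in *Tet2*+/+ and 77.1%, 82.3% and 76.2% in *Tet2*-/- (10.96 points, edgeR adjusted p = 0.259, and 6.94 points without library 24). The window of *Ltf*, the gene of lactoferrin of neutrophil granules, also holds *Ccrl2* and was at 62.0% and 59.9% in *Tet2*+/+ and 69.6%, 73.9% and 67.1% in *Tet2*-/- (9.22 points, adjusted p = 0.303). *Elane* and *Prtn3*, genes of neutrophil serine proteases, share a window with *Palm*, *Misp*, *Ptbp1*, *Plppr3*, *Cfd* and *Med16* that differed by 7.59 points, and the window of *Cd34*, a progenitor surface protein, by −1.10 points.

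**Figure D5:**
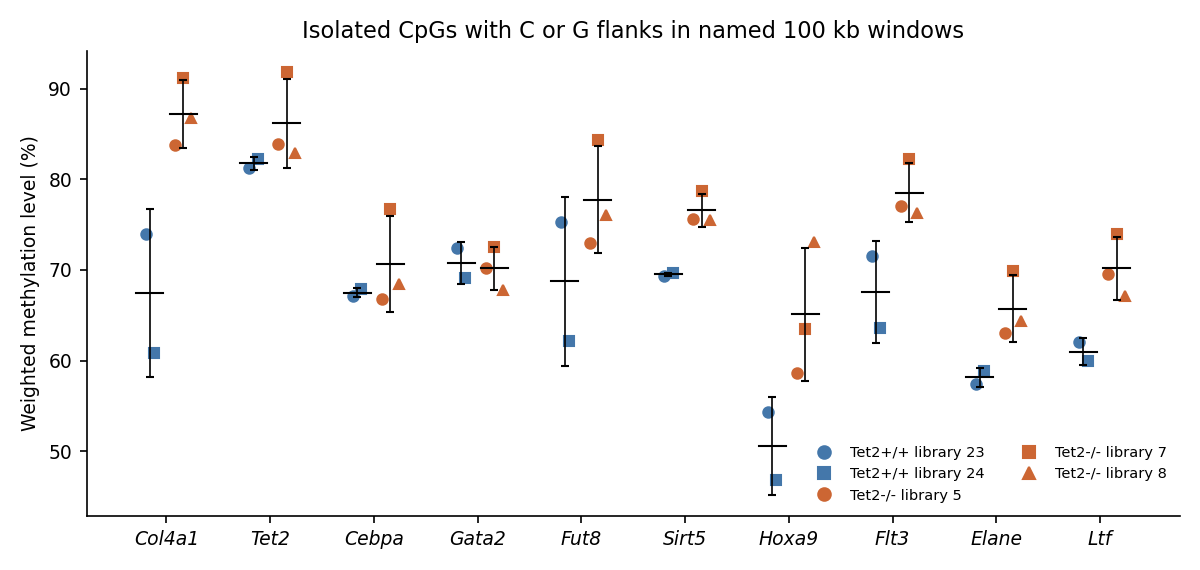
Weighted methylation level (%, vertical axis, not starting at 0) of isolated dyads with C or G flanks in the 100 kb windows of named genes, 1 point per library with group mean (line) and SD (bar). The *Col4a1* window has the widest separation, while the *Gata2* and *Cebpa* windows overlap.

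To ask where the C/G-flanked and the A/T-flanked dyads of a window responded differently, the difference between their genotype differences was tested with each library as its own control. Of 23837 windows, 8 (0.0336%) passed, 4 in each direction. At chr15:93800001-93900000, C/G-flanked dyads were at 86.3% and 80.3% in *Tet2*+/+ and 86.2%, 87.1% and 85.4% in *Tet2*-/-, while A/T-flanked dyads were at 57.9% and 40.0% in *Tet2*+/+ and 75.8%, 84.2% and 73.7% in *Tet2*-/- (edgeR adjusted p = 0.000434). The reverse was seen at chr12:65500001-65600000, where A/T-flanked dyads were at 68.6% and 77.7% in *Tet2*+/+ and 51.7%, 45.4% and 33.1% in *Tet2*-/-, and C/G-flanked dyads at 79.2% and 85.3% against 84.2%, 87.7% and 76.3% (edgeR adjusted p = 0.0109). In 4 of the 8 windows A/T-flanked dyads were lower in *Tet2*-/-, and in 1, at chr3:140100001-140200000, the C/G-flanked dyads were.

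That chromosome 3 window lies on the chromosome of *Tet2*, near other windows of the same kind. Its 42 C/G-flanked dyads were at 84.2% and 83.9% in *Tet2*+/+ and 61.5%, 69.6% and 42.7% in *Tet2*-/-, the lowest difference of all windows (−26.1 points), while its A/T-flanked dyads differed by 4.23 points. After each library's median window was subtracted, limma called 13 of 23841 windows (0.0545%), all lower in *Tet2*-/- than the rest of the library, and 6 of them, not all adjacent, lay on chromosome 3 between 139300001 and 141200000. Chromosome 3 held 6.57% of all windows. None of the 13 passed edgeR's test without that subtraction. A C-to-T difference from the reference sequence is also read as an unmethylated call, so lower methylation and a sequence difference between the libraries cannot be told apart from these counts, and what sets that stretch apart was not tested.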

How the data were processed

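WGBS of 5 libraries of sorted *Cebpa*-/p30 blasts was used, 2 *Tet2*+/+ and 3 *Tet2*-/-, grouped by their titles. The authors trimmed reads (Trim Galore 0.4.3, FastQC 0.11.7), aligned them to GRCm38 (mm10) with Bismark 0.19.1 and Bowtie2 in non-directional mode, removed duplicates and deposited raw counts, for each CpG cytosine, of reads called methylated and reads called unmethylated. Duplicates were removed by position, so intervals cover counting error only. No batch was named. The same 43816016 cytosines were listed in each library, and all 20383623 autosomal dyads matched the reference.

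Calls of both strands were added. Levels were compared by exact permutation tests over libraries, in place of the t-based test in the study's methods. Windows were tested with edgeR 4.0.16 under R 4.3.3 (a methylated and an unmethylated column for each library, a coefficient per library, trended dispersion, quasi-likelihood test, Benjamini-Hochberg at 0.05) and tested on simulated data. Alternatives were other distances (20 and 50 bp), windows (50 and 500 kb), call minimums, weightings, thinning, the likelihood ratio test, limma 3.58.1 with and without centring, and leaving out each library. Python 3.11.15, numpy 2.4.6, scipy 1.17.1, pandas 2.3.3 and matplotlib 3.10.9 were used, with GENCODE gene positions and sequence from the RefSeq copy of GRCm38.

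Windows named were the 5 with the largest difference in each direction among those past the threshold without overlap (1 existed), those of *Tet2*, *Cebpa*, *Gata2*, *Fut8* and *Sirt5*, and of the gene groups those with the highest and lowest difference and a few others. Printed members were the most deeply read of each combination outside exons, promoters, chromosomes 3 and 18 and the top 0.1% of depth, with ties settled by position. A minimum of 10 calls per library could not be met inside the named window and was dropped there. The members, lists and alternatives were chosen with earlier results of these data known.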

Additional observations from a re-analysis of the deposited data

Results flagged for a closer look

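The difference between the genotype differences of C/G-flanked and A/T-flanked isolated dyads passed the edgeR interaction test in 8 windows of 100 kb, 4 in each direction. Without 1 library the count ran from 0 (without *Tet2*+/+ library 24) to 29 (without *Tet2*-/- library 5). At chr5:12900001-13000000 the C/G-flanked dyads were higher in *Tet2*-/- by 8.10 points and the A/T-flanked dyads lower by 22.8 points, and at chr12:90600001-90700000 the differences were 1.77 and −29.3 points. At chr11:119200001-119300000, which holds *Tbc1d16*, *Ccdc40*, *Gaa* and *Eif4a3*, they were 6.04 and 22.3 points.

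The difference between the genotype differences of CCGG and GCGC passed the same test in 1 window, chr5:117300001-117400000, which holds *Vsig10*, *Wsb2* and *Rfc5*. CCGG was at 64.9% and 63.8% in *Tet2*+/+ and 79.4%, 86.9% and 81.8% in *Tet2*-/-, and GCGC at 84.1% and 82.1% in *Tet2*+/+ and 64.6%, 82.5% and 67.2% in *Tet2*-/- (edgeR adjusted p = 0.0155). Groups of 2 and 3 libraries are too small for the test of single outlying libraries.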

How the results depend on the processing

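No paired analysis was possible because the genotypes share no library number. Of 232 alternative values of levels, gaps and shares, 231 kept the direction of the value reported. The exception was the gap between C/G-flanked and A/T-flanked dyads, which differed by 0.014 on the log2 odds scale in place of −2.30 points. The difference of the gap between CCGG and GCGC stayed between 2.71 and 3.65 points, that of the C/G-flanked level between 3.84 and 7.80 points, and that of the gap between isolated and crowded dyads between 0.45 and 3.11 points.

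Counts of called windows moved far more. For C/G-flanked dyads, 1 window became 25 with a distance of 20 bp, 0 with 50 bp, 58 in 50 kb and 0 in 500 kb windows, 30 by the likelihood ratio test and 13, all lower, by limma after centring, where limma without centring called 1, also lower. Leaving out 1 library at a time gave 0 (without library 23, 24 or 8) to 470 (without library 7). It gave 1 (without library 24) to 2764 for all CpGs, 0 (without library 24) to 345 for A/T-flanked dyads, 0 (without library 23 or 24) to 327 for CCGG, 0 to 4 for GCGC, 0 to 1 for CCGC and 0 to 1 for GCGG. The interactions ranged from 0 to 29 (A/T flanks) and from 0 to 3 (GCGC). Thinning gave 1242 windows for all CpGs and 135 for CCGG. Chosen after seeing the data were the alternatives outside repeats, outside promoters and exons, in log2 odds and with A or T at both outer positions, the thinning to the calls of another class, the window tests by combination, the comparison of CCGG with GCGC itself with all its alternatives, and the values without 1 library by chromosome, six-base context and position of the combinations. The cause of these shifts was not tested.

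Among the windows of listed genes, several positive differences fell below 0 after centring, including *Cebpa* (−0.26 log2 odds), *Cebpe* (−0.42), *Elane* with *Prtn3* (−0.02), *Dnmt1*, *Tet3* and *Mpo*. Centring subtracts each library's median window. Such a value therefore means a gain smaller than that of the median window, not lower methylation in *Tet2*-/-. Without 1 library, differences that were not centred ranged from −2.27 to 1.02 points at *Gata2*, −3.48 to 1.27 at *Idh2*, −2.04 to 3.90 at *Cebpe* and −3.43 to 2.12 at *Cd34*. Depth of 3.23 to 5.68 calls per dyad limits single dyads.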
